A study of Mus musculus with 16 samples.

Results

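The cholesterol synthesis genes described here are 8 genes, taken by symbol from the 24982 gene entries of a mouse count table: Hmgcs1, Idi1, Fdft1, Sqle, Lss, Cyp51, Dhcr7 and Insig1. All 8 were found and all 8 passed the filter on low counts that left 15507 genes for testing. RNA was sequenced from lumbar dorsal root ganglia (L4 to L6, the sensory ganglia that serve the hind limb) on the injected side, 14 days after an injection into the ankle joint. The mice were given vehicle, which the sample titles name as saline, or complete Freund's adjuvant (CFA, an oil suspension that provokes lasting joint inflammation). The libraries fell into 4 groups of 4: TrkA/C knock-in mice given CFA (KI CFA), TrkA/C knock-in mice given vehicle (KI vehicle), wild-type mice given CFA (WT CFA) and wild-type mice given vehicle (WT vehicle). All were C57BL/6 mice aged 10 to 12 weeks. Each library pooled 6 ganglia from 2 mice of 1 group, so a value is a mean over neurons, glia and other cells of both animals. The labels do not describe the knock-in construct, its promoter or its line.

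Cells build cholesterol from acetyl-CoA through mevalonate, isoprenoids, squalene and lanosterol. The genes of this route are switched on together by the transcription factor SREBP-2, which its escort SCAP carries to the Golgi when membranes hold little sterol, and INSIG proteins hold both in the endoplasmic reticulum when sterol is plentiful. In peripheral ganglia and nerves the route serves neuronal membranes and, above all, the myelin of Schwann cells, since little cholesterol enters nerve from the blood.

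Across the 4 groups none of the 8 genes passed the test for a difference. In KI against WT ganglia and in CFA against vehicle ganglia the fitted difference of every member lay within 0.15 of 0 on the log2 scale, and no member was called in any of 7 comparisons. The levels of several members did differ between single libraries. Hmgcs1, Sqle, Dhcr7 and Cyp51 were high and low in much the same libraries (Pearson r of 0.56 to 0.868 between them).

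The library totals ran from 31238001 to 40910947 counts in KI CFA, from 27698035 to 37576008 in KI vehicle, from 28490746 to 34348881 in WT CFA and from 22742209 to 31816832 in WT vehicle. Levels are given as counts scaled to the library total (CPM) with TMM normalisation, which scales libraries so that most genes have equal levels. Ntrk3, which encodes TrkC, lay between 99.1 and 138 CPM in the 8 KI libraries and between 29.3 and 61.4 CPM in the 8 WT libraries. WT CFA 1 carries a knock-in genotype tag that goes against its title, and with 48.4 CPM of Ntrk3 it lay among the WT libraries. All 8 markers of sensory neurons were detected in every library, and their summed level lay between 12555 and 14960 CPM. Skeletal muscle transcripts, by contrast, were uneven: their summed level over 8 markers ran from 2.76 to 845 CPM in KI vehicle and from 3.19 to 78.3 CPM in WT vehicle.

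The promoters were read from RefSeq windows of build GRCm38.p6, which covered 250 bases before each start, and 6 of the 8 members had at least 1 window (8 windows in all). They are shown because the members are textbook SREBP-2 targets, and the windows show where the letters of a sterol element and of its usual partner motifs fall. The Hmgcs1 window lies at chr13:119690101-119690350, that of Lss at chr10:76531355-76531587 and that of Insig1 at chr5:28071162-28071362, all on the plus strand. The last 17 bases of the Lss window and the last 49 bases of the Insig1 window lie inside the annotated gene and are left off. Capitals mark matches to the sterol regulatory element TCACNCCAC or to the CCAAT box, either strand, where ATTGG is the CCAAT box read on the other strand.
Hmgcs1: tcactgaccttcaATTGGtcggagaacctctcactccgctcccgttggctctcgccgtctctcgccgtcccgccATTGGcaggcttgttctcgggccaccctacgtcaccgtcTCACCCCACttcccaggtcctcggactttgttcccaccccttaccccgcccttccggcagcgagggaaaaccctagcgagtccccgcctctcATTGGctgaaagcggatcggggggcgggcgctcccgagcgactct
Lss: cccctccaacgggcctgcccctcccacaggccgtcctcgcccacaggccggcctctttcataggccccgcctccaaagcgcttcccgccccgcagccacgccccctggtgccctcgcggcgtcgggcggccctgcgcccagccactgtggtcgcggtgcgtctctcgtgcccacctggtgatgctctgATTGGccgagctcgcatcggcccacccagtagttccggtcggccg
Insig1: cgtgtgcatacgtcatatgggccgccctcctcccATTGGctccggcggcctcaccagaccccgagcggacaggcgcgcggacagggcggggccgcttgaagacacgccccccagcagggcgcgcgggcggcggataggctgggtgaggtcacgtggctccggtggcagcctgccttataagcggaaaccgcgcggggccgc

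The sterol element was found in the Hmgcs1 window alone, 137 to 129 bases before the RefSeq start, and in 1.05% of all 32851 windows. A CCAAT box, in either orientation, stood in at least 1 window of each of the 6 matched genes and in 33.8% of all windows. Hmgcs1 had 3 of them and Idi1 had 2, while the only such window of Dhcr7 was the third of its 3. A GC box (GGGCGG, either strand) also stood in a window of each of the 6 genes and in 32.7% of all windows. The E-box CACGTG stood in the Insig1 window and in the second Dhcr7 window, and in 6.02% of all windows. The gene counts take any window of a gene and the shares count single windows. They are not like for like, since Dhcr7 had 3 windows. These are matches of letters in short windows, and a window without a match says nothing about the factor.

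Hmgcs1 makes HMG-CoA, the precursor from which mevalonate is formed, and it was the most abundant member (Entrez 208715, build mm10, chromosome 13, 119690379 to 119708260, plus strand). It had 719, 723, 699 and 741 CPM in KI CFA, 728, 733, 740.1 and 669 CPM in KI vehicle, 770.0, 849, 715 and 695 CPM in WT CFA, and 763, 772, 677 and 595 CPM in WT vehicle. The 8 KI libraries lay inside the range of the 8 WT libraries, and the lowest and the highest library were both WT. The means were 721 ± 17.4 CPM in KI CFA, 717 ± 32.4 CPM in KI vehicle, 757 ± 68.8 CPM in WT CFA and 702 ± 82.9 CPM in WT vehicle (SD, n = 4 libraries each).

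Idi1 interconverts the isoprenoid building blocks isopentenyl and dimethylallyl diphosphate (Entrez 319554, chromosome 13, 8885501 to 8892451, plus strand). Its level was 192, 170.4, 186 and 189 CPM in KI CFA, 179.8, 189, 186 and 151 CPM in KI vehicle, 172, 194, 189 and 178 CPM in WT CFA, and 185, 174, 178 and 211 CPM in WT vehicle. KI vehicle 4 was the lowest of the 16 libraries and WT vehicle 4 the highest, and the other 14 lay between 170.4 and 194 CPM.

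Fdft1, squalene synthase, joins farnesyl units into squalene and so commits them to sterols (Entrez 14137, chromosome 14, 63145150 to 63179578, minus strand). It had 327, 329, 307 and 320.1 CPM in KI CFA, 317, 308, 318 and 287 CPM in KI vehicle, 324, 316, 326 and 326 CPM in WT CFA, and 321, 318, 312 and 309.8 CPM in WT vehicle. It was the steadiest member: its SD within groups was 0.04 on the log2 scale, and 1.19% of the genes tested had a smaller one. Fdft1 shares 774 exon bases with Ctsb on the opposite strand, and since the strand setting of the counting is not given, reads of both genes cannot be separated there.

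Sqle, squalene epoxidase, adds the first oxygen and is a control point of the route after mevalonate (Entrez 20775, chromosome 15, 59315077 to 59331192, plus strand). It had 254, 249, 244 and 268 CPM in KI CFA, 261, 252, 256 and 236 CPM in KI vehicle, 274, 282, 263 and 262 CPM in WT CFA, and 268, 269, 236 and 234 CPM in WT vehicle. WT CFA held the highest group mean, 270.2 ± 9.70 CPM (SD, n = 4), and its libraries overlapped those of KI CFA and WT vehicle. They lay just above KI vehicle (lowest WT CFA library 261.8 CPM, highest KI vehicle library 260.8 CPM). These groups differ in both genotype and injection, and no comparison sets them against each other. The share of all genes without overlap between them was not computed.

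Lss, lanosterol synthase, closes the sterol rings (Entrez 16987, chromosome 10, 76531588 to 76557138, plus strand). Its level was 50.8, 59.5, 45.7 and 63.2 CPM in KI CFA, 50.6, 50.0, 51.4 and 65.4 CPM in KI vehicle, 60.0, 62.6, 46.2 and 52.2 CPM in WT CFA, and 64.9, 59.9, 49.6 and 37.0 CPM in WT vehicle. It was the most variable member, and all 4 groups overlapped. Its SD within groups was 0.25 on the log2 scale, above that of 98.5% of the 6166 genes whose mean reached 30 CPM. Of all genes tested, 72.8% had a smaller SD. The median SD was 0.15 over all genes tested, 0.095 over the genes that reached 30 CPM and 0.090 over the 8 members. The members as a set were thus about as steady as other genes of at least 30 CPM.

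Cyp51 removes a methyl group from lanosterol, and Dhcr7 catalyses a last reduction to cholesterol. Cyp51 (Entrez 13121, chromosome 5, 4081145 to 4104746, minus strand) ran from 118 to 136 CPM in KI CFA, from 117 to 137 CPM in KI vehicle, from 124 to 139 CPM in WT CFA and from 125 to 139 CPM in WT vehicle. Dhcr7 (Entrez 13360, chromosome 7, 143823145 to 143848410, plus strand) ran from 107 to 126 CPM in KI CFA, from 108 to 126 CPM in KI vehicle, from 115 to 129.6 CPM in WT CFA and from 109.6 to 126 CPM in WT vehicle. For both genes the 4 groups overlapped over most of their range. Cyp51 shares 166 exon bases with Akap9 on the opposite strand, with the same limit as for Fdft1.

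Insig1 is the sterol sensor's anchor and itself a target of SREBP-2, so that its transcript usually moves with those of the enzymes (Entrez 231070, chromosome 5, 28071363 to 28078662, plus strand). It had 121, 109, 115 and 109 CPM in KI CFA, 107, 110.5, 109 and 110.2 CPM in KI vehicle, 105, 114, 105 and 108 CPM in WT CFA, and 111, 111, 112 and 126 CPM in WT vehicle. All 4 KI vehicle libraries lay just below all 4 WT vehicle libraries, whose highest, WT vehicle 4, stood apart from the other 3. Between 975 and 30142 counts lay behind a single member value.

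**Figure D1:**
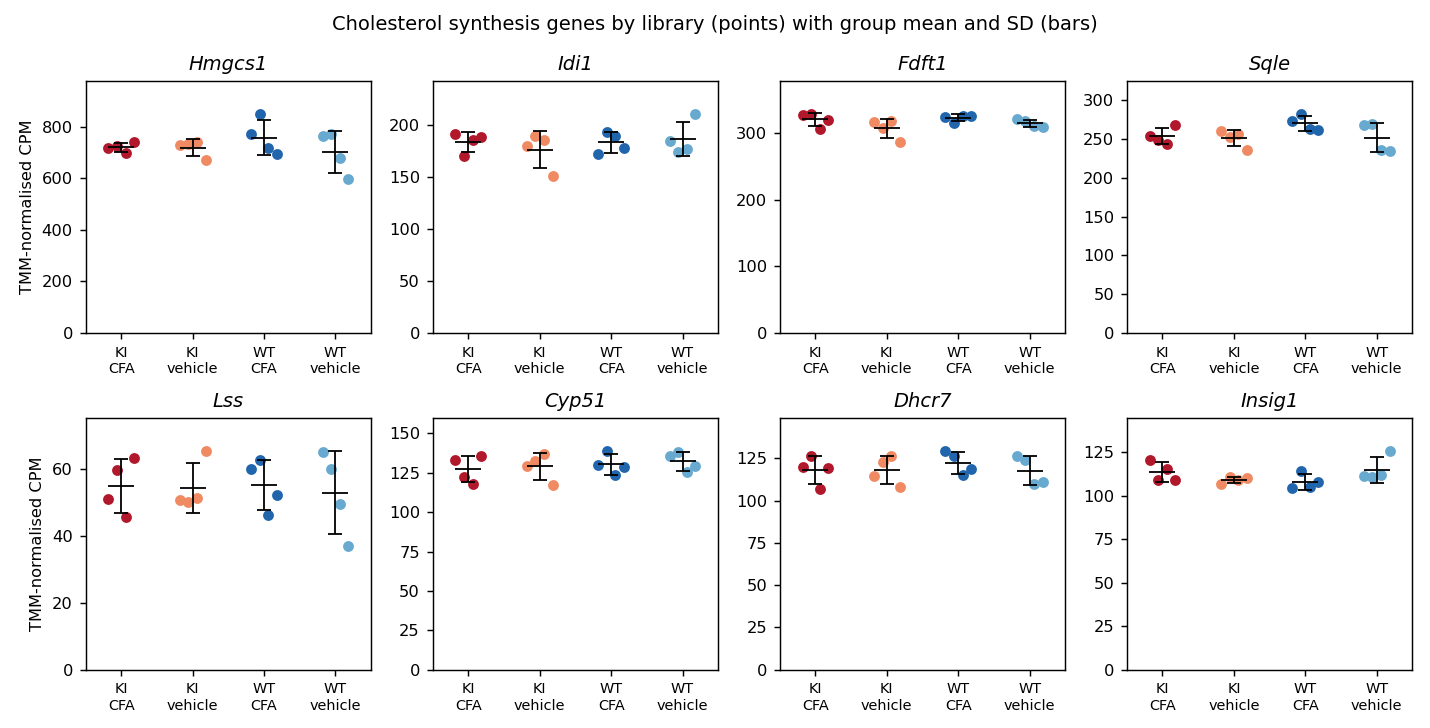
Levels of the 8 genes (TMM-normalised CPM, vertical axes from 0) in each of the 16 libraries, by group from KI CFA on the left to WT vehicle on the right; points are libraries, bars are group mean and SD (n = 4). Between groups that differ in genotype or injection alone, the points overlap for every gene except Insig1 in KI vehicle (107 to 110.5 CPM) and WT vehicle (111 to 126 CPM).

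To compare levels between genes, CPM was divided by the length of each gene's longest annotated coding transcript. On this per-kilobase scale Hmgcs1 led with 209 ± 15.9 CPM per kb (SD over 16 libraries), followed by Sqle with 93.1 ± 5.16, Fdft1 with 85.6 ± 2.84 and Idi1 with 60.4 ± 4.33. Dhcr7 followed with 42.3 ± 2.60 CPM per kb, Insig1 with 41.3 ± 2.07, Cyp51 with 33.0 ± 1.76 and Lss with 11.6 ± 1.74. Each gene exceeded the next in all 16 libraries, except that Dhcr7 exceeded Insig1 in 11 of 16, so that this pair cannot be ordered. With the length of all annotated exons in place of the longest transcript, Hmgcs1 (158 CPM per kb) stayed first and Lss (5.04 CPM per kb) last, while the order of the others shifted.

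The first question was whether the knock-in changed the route. Differences are log2 fold changes from edgeR's quasi-likelihood test, KI over WT, and the threshold for a call was an adjusted p of 0.05 (Benjamini-Hochberg, over all genes tested). With vehicle 0 of 8 members were called, where 4.34% of all genes tested were, and the differences ran from -0.08 (Idi1) to 0.04 (Lss). With CFA 0 of 8 were called against 2.84% of all genes, and the differences ran from -0.09 (Sqle) to 0.07 (Insig1). Over the mean of both injections 0 of 8 were called against 8.96% of all genes, with differences between -0.05 (Sqle) and 0.01 (Lss). In a bulk sample fewer cells of a type and less RNA per cell cannot be told apart.

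Insig1 was the member whose groups separated, and it did so in 1 comparison. With vehicle its 4 KI libraries lay below its 4 WT libraries, which made it 1 of 8 members, where 14.6% of all genes tested had groups that did not overlap. The size of this difference was -0.08 ± 0.05 on the log2 scale (SE), and edgeR's adjusted p was 0.399. With CFA the sign was the other one, 0.07 ± 0.05 (edgeR adjusted p = 0.66), and the groups overlapped, as they did for 8 of 8 members there, against 8.13% of all genes without overlap. The test of the difference between both effects gave 0.15 ± 0.07 (edgeR adjusted p = 0.718). Among the 56 member tests this one had the smallest unadjusted p, 0.0582.

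The second question was whether joint inflammation changed the route. In KI ganglia CFA against vehicle called 0 of 8 members and 0% of all genes, and the differences ran from -0.02 (Cyp51) to 0.06 (Idi1). Without KI vehicle 2 this comparison called 53 genes, no member among them. In WT ganglia it likewise called 0 of 8 members and 0% of all genes, with differences from -0.09 (Insig1) to 0.11 (Hmgcs1). At an unadjusted p under 0.05 there were 881 genes in KI and 1079 in WT, no member among them, and DESeq2 called 15 genes in KI and 24 in WT, again no member. The mean over both genotypes called 0.0258% of all genes and 0 of 8 members, with differences from -0.02 (Cyp51) to 0.06 (Hmgcs1). No member had groups without overlap, which 4.32% of all genes had in KI and 3.02% in WT. The interaction of genotype and injection called 0 of 8 members and 0% of all genes (976 genes at an unadjusted p under 0.05, and 0 by DESeq2). WT vehicle serves both as the WT side of the first KI comparison and as the vehicle side of the WT comparison, so the Insig1 differences of -0.08 and -0.09 share those 4 libraries.

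The intervals show what size of change these libraries would still allow. Over the 6 comparisons other than the interaction, the 95% intervals of 7 members lay between 0.85-fold and 1.20-fold. The intervals of Lss, which varied more, lay between 0.802-fold and 1.29-fold. For KI against WT over both injections the intervals of the same 7 members lay between 0.904-fold and 1.06-fold. A p above the threshold does not show that levels were equal, but none of these intervals reached a 1.3-fold difference in either direction. For the interaction the Lss interval was wider, from 0.715-fold to 1.307-fold, and passed 1.3-fold in both directions.

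**Figure D2:**
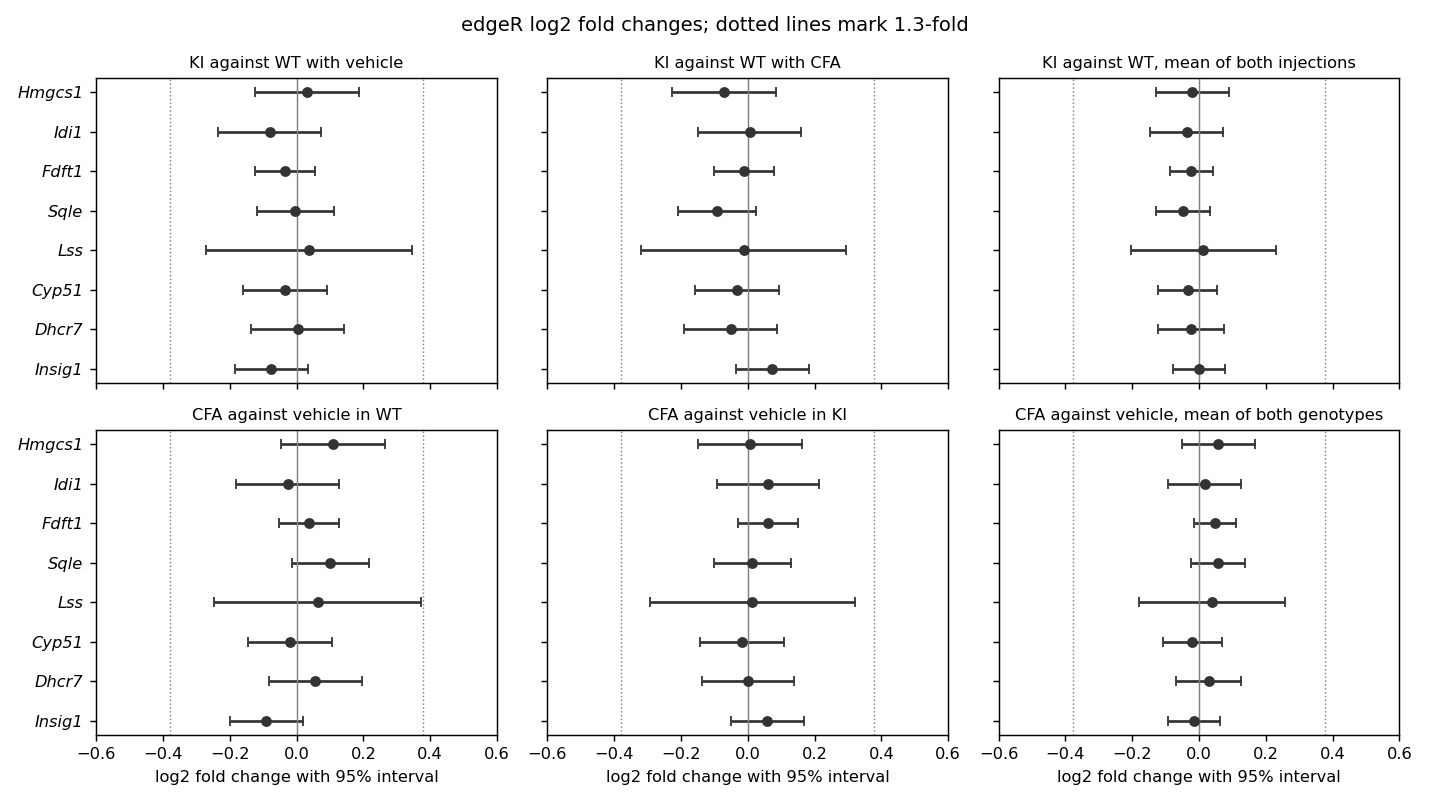
Log2 fold changes with 95% intervals (horizontal axes) of the 8 genes in 6 comparisons, KI over WT in the upper row and CFA over vehicle in the lower row; dotted lines mark a 1.3-fold change. Every interval includes 0, and the widest belong to Lss.

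Although no member was called between groups, the levels of some members varied together across libraries. Of the 28 pairs of members, 7 had a Pearson correlation of log2 CPM over the 16 libraries with a Benjamini-Hochberg adjusted permutation p under 0.05, and all 7 were positive. The share of such pairs among other genes was not computed, so this count cannot be read as particular to the route. By Spearman's rho 3 pairs passed, 2 of them among the 7. The third was Hmgcs1 and Cyp51, with rho = 0.776 and r = 0.56 (permutation p = 0.00064 and 0.0225, adjusted over the 28 pairs 0.00681 and 0.0631). Of the 7, Hmgcs1 and Lss depended on single libraries, with r = 0.671 over all 16 and r = 0.339 without WT CFA 2 and WT vehicle 4. Without WT vehicle 4 and KI vehicle 4, r of this pair was 0.699. Without KI CFA 3 and KI vehicle 4, r of Fdft1 and Dhcr7 went from 0.614 to 0.367. That of Cyp51 and Dhcr7 went from 0.688 to 0.452 without the same libraries. The closest pair was Hmgcs1 and Sqle, with r = 0.868 and Spearman rho = 0.853 (permutation p = 1e-05, the smallest that 100000 permutations can give, and 9e-05; adjusted over the 28 pairs 0.00028 and 0.00252). Without WT CFA 2 and WT vehicle 4, the libraries farthest from the median of Hmgcs1, r was 0.843, and with group means removed it was 0.876. Both enzymes thus moved together within groups as well. Insig1 did not follow them: its r was -0.442 with Hmgcs1 and -0.443 with Sqle (permutation p adjusted over the 28 pairs 0.155 and 0.151). Without WT vehicle 4 these were 0.023 and -0.229. With the other enzymes its r ran from -0.468 (Lss) to 0.534 (Idi1), and no Insig1 pair passed.

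Dhcr7 and Cyp51 followed Hmgcs1 and Sqle. Hmgcs1 and Dhcr7 had r = 0.729 and rho = 0.779 (permutation p = 0.00055 and 0.00073, adjusted over the 28 pairs 0.0077 and 0.00681), and r was 0.828 without WT CFA 2 and WT vehicle 4. Sqle and Dhcr7 had r = 0.73 and rho = 0.626 (permutation p = 0.0015 and 0.011, adjusted 0.014 and 0.0618), and r was 0.622 without KI vehicle 4 and WT vehicle 4. Sqle and Cyp51 had r = 0.662 and rho = 0.653 (permutation p = 0.00581 and 0.00815, adjusted 0.0271 and 0.057), and r was 0.65 without KI vehicle 4 and WT vehicle 4. The values of a pair come from the same libraries, whose depth and mix of cells both genes share.

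Idi1 and Lss, which flank squalene synthesis in the route, had the lowest correlation, r = -0.601 and rho = -0.418 (permutation p = 0.0153 and 0.108, adjusted over the 28 pairs 0.0536 and 0.216). It rested on 2 libraries: without KI vehicle 4 and WT vehicle 4, r was -0.185. The ratio of Lss to Idi1 counts was 0.433 in KI vehicle 4 and 0.176 in WT vehicle 4, and between 0.244 and 0.351 in the other 14. In WT vehicle 4 Hmgcs1 (595 CPM) and Lss (37.0 CPM) were at their lowest and Idi1 (211 CPM) and Insig1 (126 CPM) at their highest of all libraries. The same library stood apart in Apoe, at 3716 CPM beside 2112 to 2875 CPM in the others. Apoe is on the lists of satellite glia markers and of cholesterol export and transport, and it held most of both sums. The summed level of 6 satellite glia markers was 4584 CPM there and 2749 to 3610 CPM in the others. That of the 11 genes of export and transport was 4295 CPM there and 2708 to 3484 CPM in the others. The part of this in the member levels was not tested. In KI vehicle 4 Idi1 (151 CPM), Fdft1 (287 CPM) and Cyp51 (117 CPM) were at their lowest and Lss (65.4 CPM) at its highest.

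**Figure D3:**
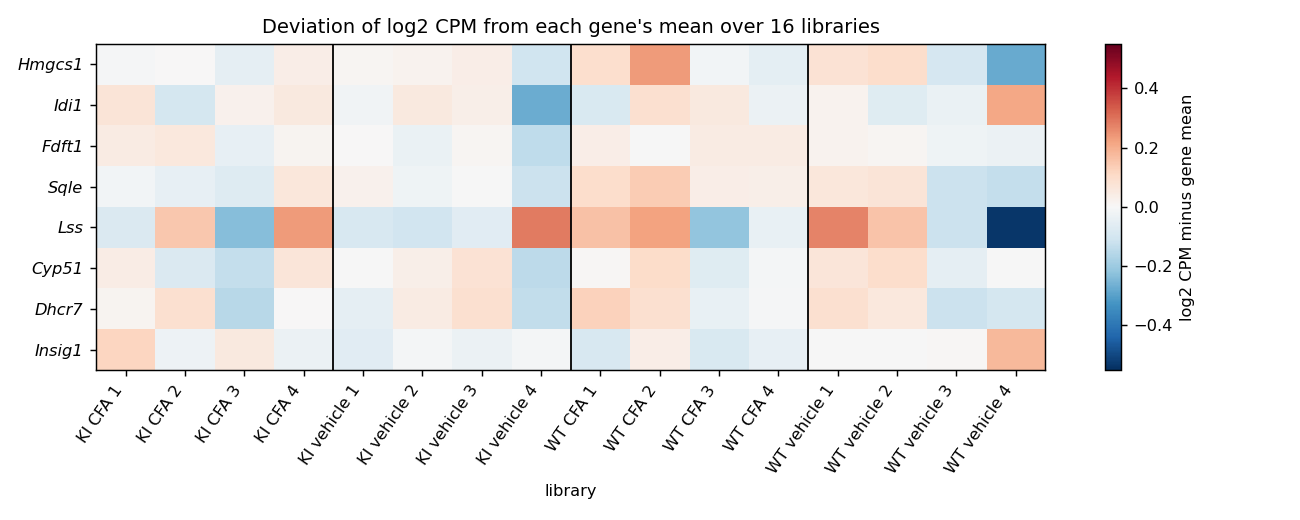
Deviation of each gene's log2 CPM from its mean over the 16 libraries (colour, red above and blue below), with libraries ordered KI CFA, KI vehicle, WT CFA, WT vehicle and black lines between groups. Lss in WT vehicle 4 lies 0.54 below its mean, and Lss is above and Idi1 below their means in KI vehicle 4.

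The source names of the samples open with a number whose meaning the labels do not give, and in WT Hmgcs1 tended to be lower at the higher numbers. In the order of these numbers (1, 2, 4, 5, 6, 7, 8 and 9) Hmgcs1 had 763, 772, 770.0, 849, 715, 695, 677 and 595 CPM in WT. The first 4 values all lay above the last 4. WT vehicle holds the numbers 1, 2, 8 and 9 and WT CFA the numbers 4 to 7. The middle numbers in WT are thus all CFA and the outer ones all vehicle. A rise or fall in the middle of the series cannot be told apart from injection there.

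A fit with this number, centred within genotype, gave a slope of -0.03 ± 0.01 per number on the log2 scale for Hmgcs1 (edgeR adjusted p = 0.332). The slope of Dhcr7 was -0.02 ± 0.01 (edgeR adjusted p = 0.332), and that of Sqle was -0.02 ± 0.01 (edgeR adjusted p = 0.40). None of the 8 members was called for this term, where 0.0129% of all genes tested were. With the number in the model the KI difference between CFA and vehicle was 0.12 for Hmgcs1, 0.09 for Sqle and 0.10 for Dhcr7, where without it the differences were 0.01, 0.01 and 0.00, and none was called in either fit. Over both genotypes it was then 0.13 for Hmgcs1, 0.10 for Sqle, 0.09 for Dhcr7 and 0.07 for Fdft1. Without the number these were 0.06, 0.06, 0.03 and 0.05. With it each had an unadjusted edgeR p under 0.05, and none was called. In KI the numbers 1 to 3 are all vehicle and 9 and 10 are both CFA, so that number and injection overlap there.

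**Figure D4:**
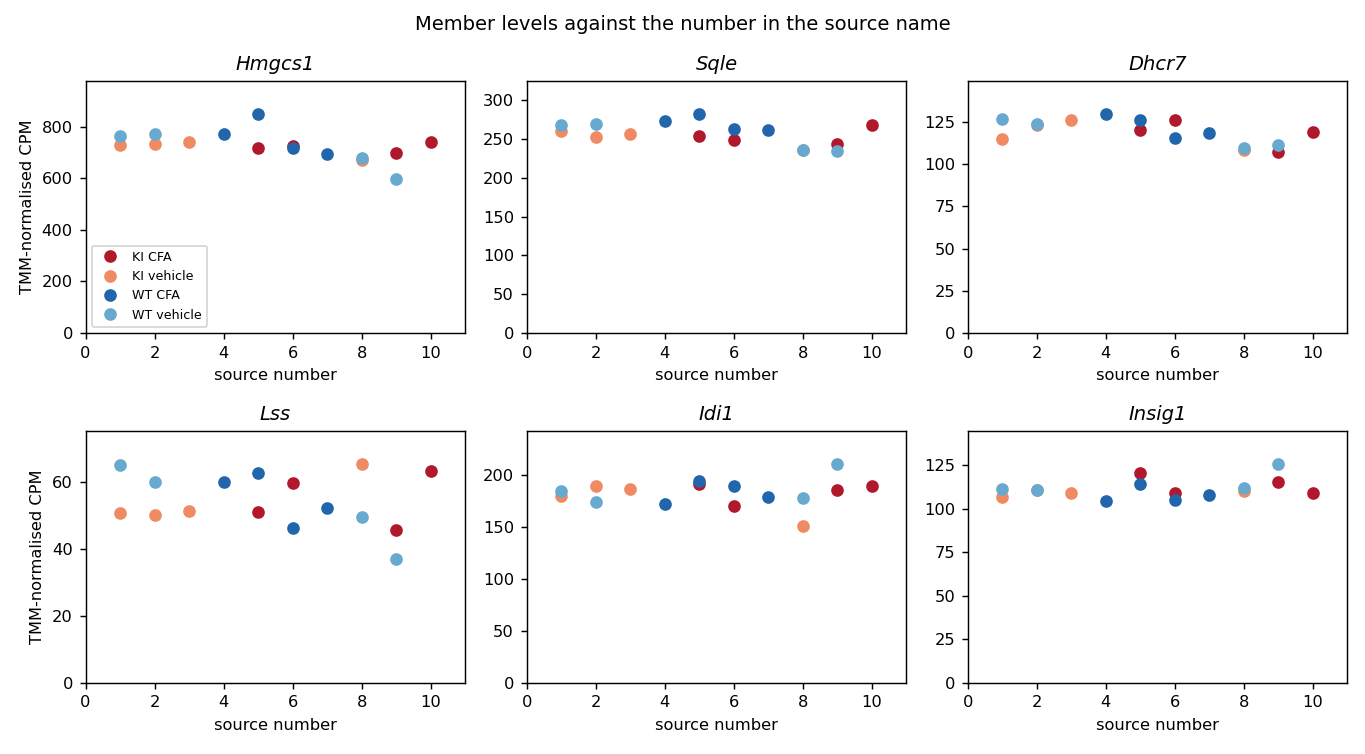
Levels of 6 of the genes (TMM-normalised CPM, vertical axes from 0) against the number that opens the source name, coloured by group. Hmgcs1, Sqle, Dhcr7 and Lss tend to lie lower at the higher numbers in WT, where Hmgcs1 had 763 CPM at number 1 and 595 CPM at number 9.

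Among the genes whose log2 CPM followed the mean of the 8 members most closely over the 16 libraries, out of 11269 other genes averaging 5 CPM or more, were Ntn3 (r = 0.862), Dph2 (r = 0.834), Fbxo10 (r = 0.82) and Ppp1r10 (r = 0.806). The member mean moved little, between 7.39 and 7.59 log2 CPM, so these values describe small shared deviations. The 16 other enzymes of the route differed in this: Mvd, which makes isopentenyl diphosphate, had the highest correlation (r = 0.689, rank 62), and Ggps1, which makes a longer isoprenoid used on proteins, the lowest (r = -0.247, rank 8541).

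The rest of the route gave no calls either. Of 16 other cholesterol synthesis enzymes, all tested, 0 were called in any of the 7 comparisons. The share of all genes called was 8.96% at most, in KI against WT over both injections. Their median difference in KI against WT over both injections was -0.04, beside -0.02 for the members and 0.00 for all genes tested.

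Of 12 genes of sterol sensing, also 0 were called in any comparison, against the same 8.96% of all genes at most. Over both injections KI against WT gave 0.06 ± 0.05 for Srebf2, which encodes SREBP-2, 0.03 ± 0.05 for Srebf1, which encodes the lipogenic SREBP-1, and 0.02 ± 0.04 for Scap. Insig2, the second anchor, gave -0.12 ± 0.05 (edgeR adjusted p = 0.19). In CFA against vehicle over both genotypes Srebf2 gave 0.06 ± 0.05 (edgeR adjusted p = 0.915).

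Among 11 genes of cholesterol export, esterification and transport, Abcg1 had the smallest adjusted p in KI against WT over both injections. Abcg1, a transporter that hands cholesterol to lipoproteins, had 72.0, 66.8, 68.8 and 71.8 CPM in KI CFA and 85.8, 89.8, 88.7 and 85.9 CPM in WT CFA. These groups did not overlap, and on the log2 scale Abcg1 fell by 0.33 ± 0.05 (edgeR adjusted p = 0.00171). It had 75.4, 73.3, 83.2 and 72.3 CPM in KI vehicle and 87.9, 92.3, 84.3 and 81.7 CPM in WT vehicle, which overlapped (-0.19 ± 0.05, edgeR adjusted p = 0.0532). Over both injections Abcg1 fell by 0.26 ± 0.04 (edgeR adjusted p = 0.000225), and both calls held in every alternative fit that was run.

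Of these 11 genes 1 rose and 2 fell over both injections, where 8.96% of all genes tested were called, and the median was -0.07. Besides Abcg1 these were Lrp1, an endocytic receptor for apolipoprotein E, which rose by 0.31 ± 0.08 (edgeR adjusted p = 0.0245), and Npc2, which passes cholesterol out of lysosomes and fell by 0.14 ± 0.04 (edgeR adjusted p = 0.0187). Both calls ended without KI vehicle 1 and KI vehicle 4, whose skeletal muscle transcripts were the highest of all libraries (845 and 658 CPM summed over 8 markers). The differences were then 0.28 for Lrp1 (edgeR adjusted p = 0.0999) and -0.12 for Npc2 (edgeR adjusted p = 0.124), against 0.31 and -0.14 with all libraries. The Lrp1 call also ended without KI vehicle 4 alone (0.27, edgeR adjusted p = 0.0588). With vehicle Lrp1 rose by 0.47 ± 0.12 (edgeR adjusted p = 0.0334), a call lost when WT vehicle 1, 3 or 4 or KI vehicle 2 or 4 was left out (0.0537 to 0.112). In the same comparison all 5 fibroblast markers had positive differences, with a median of 0.24, and 1 of them was called. Their summed level ran from 439 to 669.7 CPM in KI vehicle and from 465 to 503 CPM in WT vehicle, and KI vehicle 4 was the highest of the 16 libraries for both this sum and Lrp1 (207 CPM); the part of these markers in the Lrp1 difference was not tested. With vehicle Npc2 fell by 0.19 ± 0.05 (edgeR adjusted p = 0.046), a call that ended without any 1 library other than WT vehicle 1 or 2 (0.0514 to 0.132). In CFA against vehicle 0 of the 11 were called in KI, in WT or over both genotypes.

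Of 11 fatty acid synthesis genes, the targets of SREBP-1, 1 fell in KI against WT over both injections and 0 rose, a share near the 8.96% of all genes tested, with a median of 0.03. This was Acss2, which makes acetyl-CoA from acetate, with a fall of 0.15 ± 0.04 (edgeR adjusted p = 0.0159; without KI vehicle 1 and KI vehicle 4 the difference was -0.16 and the adjusted p 0.0567). None of the 11 was called in the KI comparison with vehicle, in that with CFA, or in any comparison of CFA with vehicle.

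**Figure D5:**
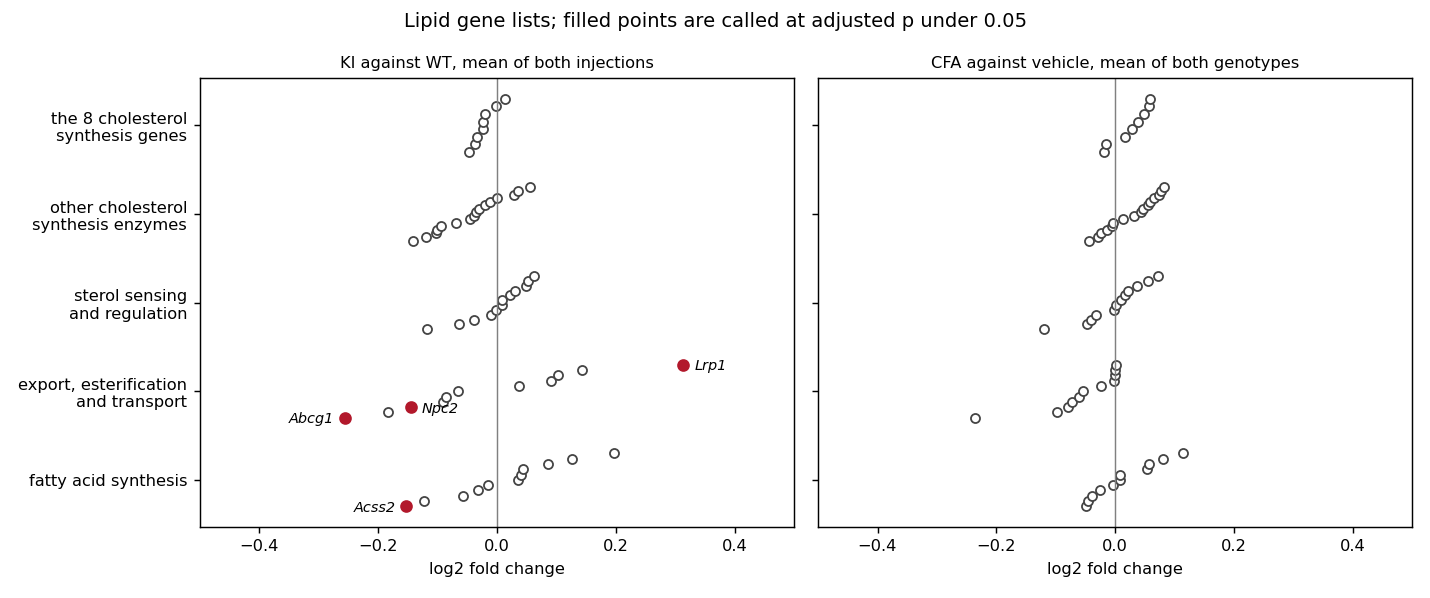
Log2 fold changes (horizontal axes) of the 8 genes and of 4 lists of related genes, KI over WT on the left and CFA over vehicle on the right; each point is a gene, and filled points are called. The called genes are Abcg1 (-0.26), Npc2 (-0.14), Lrp1 (0.31) and Acss2 (-0.15), all on the left, and every point of the 8 genes lies within 0.06 of 0.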

How the data were processed

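Per the labels' protocols, poly-A RNA libraries were read as single ends of 50 nucleotides. Per the submitters' processing notes, reads were handled with bcl2fastq 2.20 and FastQC. The same notes name TopHat2 2.1.1 with Bowtie2 2.3.5.1 as aligners, SAMtools 1.5, and HTSeq 0.6.1p1, a counter, and give mm10 as the build. Settings, annotation and strand mode are not given in the sources used here. The authors deposited raw counts of reads for each gene, without normalisation. Groups came from the sample titles. Differences were tested in R 4.3.3 with edgeR 4.0.16 (quasi-likelihood, TMM factors, filterByExpr, 1 mean per group, 16 libraries, 15507 genes) with Benjamini-Hochberg adjustment, and the scripts were tested on simulated counts. The common biological coefficient of variation was 11.8%. Intervals are 95% and use the moderated degrees of freedom of the fit. Log2 CPM in correlations across all genes used a prior count of 2. The alternatives were other size factors, no filter, DESeq2 1.42.0, fits restricted to the groups of a comparison, a replicate block, a source number covariate, and leaving out 1 or 2 libraries.

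The 8 genes, the lists and the tests were chosen with earlier results of these data known. Named genes were all 8 members, regulators of the route (Srebf1, Srebf2, Scap and Insig2), called genes of the lists (at most 4 per list and comparison by p), and the genes closest to the member mean; some results under this rule are not reported here. Mvd, Ctsb, Akap9 and Ntrk3 were named as context. PCR duplicates cannot be recognised in counts, so the size of a count alone does not give its precision. The SEs and intervals of the edgeR fit also include the spread between libraries of a group. Lengths came from GENCODE M21 and promoter windows from RefSeq.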

Additional observations from a re-analysis of the deposited data

Results flagged for a closer look

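Dixon's test over groups of 4 libraries marked 3 of the 32 member groups, where chance marks about 1 in 20. Fdft1 was low in WT CFA 2, at 316 CPM beside 324 to 326 CPM in the other 3 libraries. Lss was high in KI vehicle 4, at 65.4 CPM beside 50.0 to 51.4 CPM in the other 3. Insig1 was high in WT vehicle 4, at 126 CPM beside 111 to 112 CPM in the other 3.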

How the results depend on the processing

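In each of the 7 comparisons 0 of 8 members were called under every alternative that was run, DESeq2 and the fits without 1 library included. Of 1264 refitted member differences, 122 had the other sign, all between values that were not called, 15 had an unadjusted p under 0.05, and the range was -0.16 to 0.18 on the log2 scale. Only 3 moved by more than 1 within-group SD, all in CFA against vehicle in KI with the source number as a covariate (Hmgcs1 0.12, Sqle 0.09, Dhcr7 0.10). Of the 15 with an unadjusted p under 0.05, 8 came from fits without 1 library and 7 from the fit with the source number. Those 7 were all positive differences of CFA against vehicle. The fit with a replicate block called 0 of 8 members, with a largest shift for Lss (0.05 against 0.04 without the block). No label says that equal replicate numbers mark a shared animal, batch or day. The 24 correlations of same-numbered libraries ran from -0.207 to 0.133, and 3 exceeded 0.1. Such correlations cannot decide whether those libraries were paired.

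Counts over all genes, which serve as background, depended more on the fit. KI against WT with vehicle called 673 genes, 1487 with DESeq2, 214 with only the groups compared, 132 without KI vehicle 1 and KI vehicle 4, and 284 to 905 without 1 library (410 or fewer without any one of the KI vehicle libraries, WT vehicle 3 or WT vehicle 4). With CFA 441 genes were called, 663 with DESeq2 and 241 to 652 without 1 library (267 without KI CFA 2, 241 without KI CFA 3, 289 without WT CFA 2), and over both injections 1390, 778 without KI vehicle 1 and KI vehicle 4, and 993 to 1430 without 1 library. CFA against vehicle called 4 genes over both genotypes, 57 with DESeq2 and 0 to 39 without 1 library (39 without KI vehicle 2). In KI it called 0 genes, 15 with DESeq2 and 53 without KI vehicle 2. The Npc2 call with vehicle ended in 19 alternatives, 14 of them without 1 library, and that of Lrp1 in 6, 5 of them without 1 library. Fits of only the groups compared could not be made for comparisons that use all 4 groups. The lowest member count in a library was 975.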
